A study of Mus musculus with 267 samples.

Results

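The Arg1 locus was followed across the ChIP-seq data of bone marrow-derived macrophages (BMDMs) treated with interleukin-4 (IL-4). Its members were chosen by position alone: every region of the 9 deposited tag tables, and every peak of the 54 transcription factor peak lists, whose centre lay within 50 kb of the start of Arg1 in mm10. The tables held 56 such regions of 423610 in all, and the lists held 266 such peaks of 1958714. Arg1 occupies chr10:24915221-24927484 on the minus strand (GENCODE), a span of 12264 bp, so that upstream of Arg1 means toward higher coordinates. Its neighbours are Med23, which encodes a subunit of the Mediator coactivator complex and lies tail to tail with Arg1 with 1540 bp between the gene ends, and Gm36172, a noncoding RNA gene that starts 135 bp from the Arg1 start and runs the other way. Mir6905 and Gm23410, a small nuclear RNA gene, lie within Med23.

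Arg1 encodes arginase 1, the cytosolic enzyme that splits L-arginine into L-ornithine and urea, and is a classic gene of alternatively activated macrophages. IL-4 binds its receptor and leads to phosphorylation of STAT6, which enters the nucleus and binds DNA. PU.1 (PU1 in the labels) and C/EBPβ (CEBPb) are factors that open and maintain macrophage enhancers, PPARγ (PPARg) is a nuclear receptor of alternative activation, and EGR2 is a zinc finger factor. Acetylation of histone H3 at lysine 27 (H3K27ac) marks active promoters and enhancers, H3K4me2 is found at promoters and enhancers, H3K4me3 at promoters, and RNA polymerase II (Pol II) is found where RNA is made.

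The series holds 267 ChIP-seq samples from BMDMs grown with M-CSF, left untreated (basal) or given 20 ng/ml IL-4 for 1, 6 or 24 h. Macrophages came from female mice of 5 inbred strains, SPRET/EiJ (SPRET), PWK/PhJ (PWK), BALB/cJ (BALB), C57BL/6J (C57) and NOD/ShiLtJ (NOD), compared in basal cells and at 24 h. C57 cells were also taken at 1 and 6 h. A further pair of genotypes carried floxed Egr2 alleles, either alone (Egr2 fl/fl) or with the myeloid LyzM-Cre transgene that deletes them (LyzM-Cre Egr2 fl/fl), so the controls of that comparison also had floxed Egr2. Per the study's methods the mice were young adults and the ChIP libraries are biological replicates, but neither these nor the labels say whether replicates came from separate mice, so p-values measure the spread between libraries. The 155 libraries of the tag tables held 4691644 to 29050468 tags, and all tag values below are normalized tags, the number per 10000000 tags of a library. Of the macrophage markers listed for the check of cell type (Csf1r, Adgre1, Spi1, Itgam, Cd68, Mertk, Fcgr1 and Lyz2), all 8 had a region at their start in every strain but SPRET, where Csf1r lacked one. Their summed H3K27ac, as group means, lay between 2820 and 4778 tags in basal cells of the strains and between 2006 and 2551 at 24 h, so it was lower at 24 h in each strain while the Arg1 locus was higher. Of the T cell markers Cd3e, Cd3g and Cd2 only Cd2 had a region, in the C57 tables alone, with at most 7.02 tags. Of the fibroblast markers Col1a1, Col1a2 and Pdgfra only Col1a1 had one, in all strains but BALB, with at most 2.7 tags in basal cells and 7.01 at 24 h. None of the hepatocyte markers Alb, Apoa1 and Ttr had a region. The share of H3K27ac tags that fell in regions was 65.4% and 59.6% in basal C57 libraries and 43.2% and 38.2% at 24 h. These shares were also lower without overlap in NOD, while the groups overlapped in BALB, PWK and SPRET. The part of these changes in the results was not tested. In bulk samples fewer responding cells, less signal per cell and lower enrichment of a library cannot be told apart.

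Peaks of different lists were joined into 26 sites, with neighbouring centres up to 200 bp apart. In C57 BMDMs at 24 h, 4 sites held peaks of all 5 factors, STAT6, EGR2, PPARg, PU1 and CEBPb. They lay 2.87, 4.21 and 22.93 kb upstream and 16.04 kb downstream of the Arg1 start, the last within an intron of Med23. The sequences of the upstream sites are shown, though the IL-4 changes described here fall on downstream regions as well. Each is 300 bases of mm10 around the site centre, read 5′ to 3′ on the Arg1 (minus) strand, with matches to 6 motif searches in capitals.
Site 2.87 kb upstream, chr10:24930203-24930502: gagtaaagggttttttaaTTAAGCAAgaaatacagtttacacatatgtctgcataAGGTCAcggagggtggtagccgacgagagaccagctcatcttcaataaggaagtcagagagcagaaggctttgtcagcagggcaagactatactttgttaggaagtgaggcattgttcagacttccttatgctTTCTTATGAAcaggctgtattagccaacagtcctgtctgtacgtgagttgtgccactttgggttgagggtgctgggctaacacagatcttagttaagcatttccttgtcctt
Site 4.21 kb upstream, chr10:24931547-24931846: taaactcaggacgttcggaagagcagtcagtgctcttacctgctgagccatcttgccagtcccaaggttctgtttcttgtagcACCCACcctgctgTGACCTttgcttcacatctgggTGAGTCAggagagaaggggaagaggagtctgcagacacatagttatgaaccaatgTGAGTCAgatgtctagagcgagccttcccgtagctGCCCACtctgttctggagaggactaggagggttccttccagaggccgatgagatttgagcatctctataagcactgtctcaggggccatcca
Site 22.93 kb upstream, chr10:24950270-24950569: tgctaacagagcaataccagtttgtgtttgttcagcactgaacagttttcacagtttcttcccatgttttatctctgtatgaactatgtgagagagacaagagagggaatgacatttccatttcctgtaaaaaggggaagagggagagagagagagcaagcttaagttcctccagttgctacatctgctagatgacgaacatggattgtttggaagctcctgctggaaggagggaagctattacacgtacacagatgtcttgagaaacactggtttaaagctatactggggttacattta

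Exact words were searched on both strands. The EGR search took GTGGGC, its variant with a last T (GTGGGT) and the longer GCGTGGG. The STAT search (TTCNNNGAA or TTCNNNNGAA) matched once, as TTCTTATGAA at bases 189 to 198 of the 2.87 kb site. The same site held a C/EBP word (TTGCNNAA), read as TTAAGCAA at bases 19 to 26, and a PPAR hexamer (AGGTCA) at bases 56 to 61. The 4.21 kb site had no STAT word and instead held EGR words, read as ACCCAC at bases 84 to 89 and GCCCAC at bases 209 to 214. It also held a PPAR hexamer, TGACCT at bases 97 to 102, and the AP-1 word (TGANTCA) as TGAGTCA at bases 119 to 125 and 174 to 180. The 22.93 kb site held none of these words, the 16.04 kb site held a single C/EBP word, and the PU.1 word (GAGGAAG) was in none of the 4. The searched words are common. In windows of the same length on chromosome 10, the STAT words were in 25.7% of 2324 STAT6 peaks of C57 at 24 h, the EGR words in 53.7% of 1624 EGR2 peaks, the PPAR hexamer in 26.9% of 2259 PPARg peaks, the C/EBP word in 40.2% of 2139 CEBPb peaks and the PU.1 word in 37.6% of 5154 PU1 peaks. The AP-1 word was in 26.1% of the STAT6 peaks. Among 32851 promoters of RefSeq (mm10, 300 bases each), the shares were 14.6% (STAT), 36.4% (EGR), 16.3% (PPAR), 10.8% (C/EBP), 13.6% (PU.1) and 7.81% (AP-1). A match describes these letters only and is no measure of binding.

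**Figure D1:**
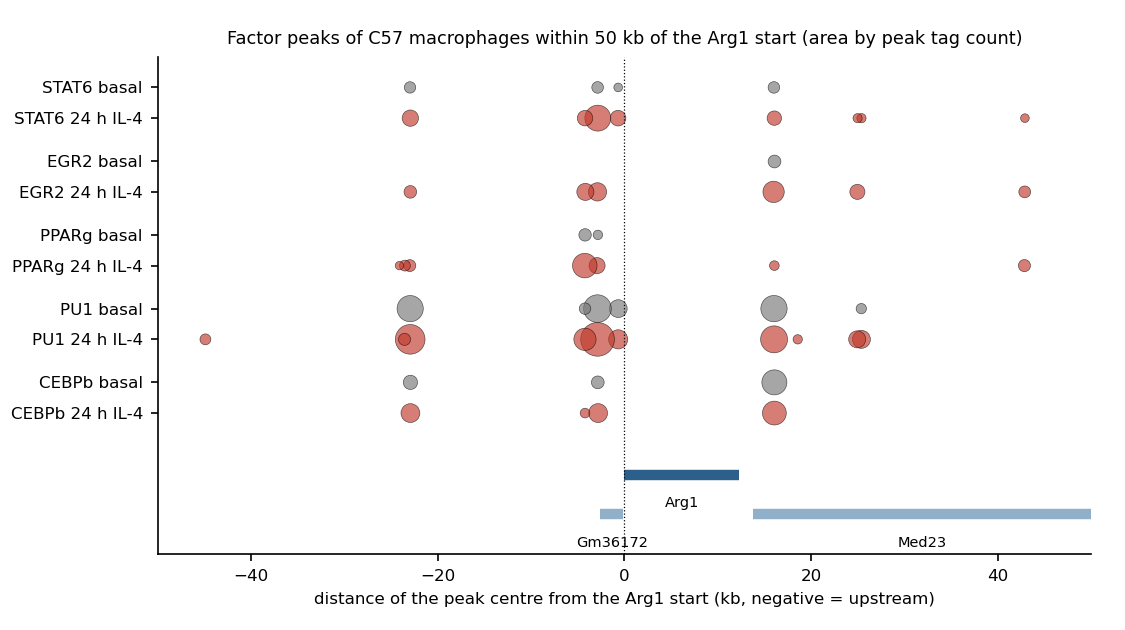
Peaks of 5 transcription factors around the Arg1 start in C57 BMDMs, by distance from the start in kb along the gene (negative values upstream), with basal peaks in grey, 24 h IL-4 peaks in red, circle area by the deposited peak tag count, and the annotated genes below. The sites 2.87 and 4.21 kb upstream carry peaks of all 5 factors at 24 h, while nearer the start only PU1 and STAT6 have peaks.

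The site 2.87 kb upstream was the most widely bound, with a peak in 46 of the 54 lists. Each list was made per group, so a peak has no replicate error, and its tag count is given as deposited, with a scaling that the sources used here do not state. STAT6 at this site had a count of 52 in basal C57 BMDMs, 616 at 1 h, 502 at 6 h and 326 at 24 h. It ranked 7 of 24376 STAT6 peaks at 1 h, 7 of 23884 at 6 h and 34 of 39537 at 24 h. In the other strains the STAT6 count at 24 h was 127 in BALB (rank 114 of 16432, with no basal peak), 178 in NOD (rank 53 of 20619, basal 37), 430 in PWK (rank 12 of 38679, basal 47) and 274 in SPRET (rank 121 of 35742, basal 36). Thus the site was among the higher STAT6 peaks of every strain at 24 h, and at 1 and 6 h in C57. PU1 was already present there in basal cells of all 5 strains, with basal counts of 337 to 405 and counts of 368 to 568 at 24 h. CEBPb at this site had counts of 240 in basal cells and 302 at 24 h in PWK, 153 and 158 in SPRET, 66 and 165 in C57, 66 and 248 in NOD, and 32 and 165 in BALB.

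The site 4.21 kb upstream had a peak in 43 of the 54 lists and differed more between strains in basal cells. The PPARg peak count there at 24 h was 365.6 in SPRET, 243.3 in PWK, 296 in NOD, 291 in C57 and 180 in BALB. In basal cells it was 261.5, 210.4, 25.2, 61.4 and 31.7, in the same order. The basal peak thus stood in the top 1.98% of PPARg peaks by count in PWK and 1.62% in SPRET, but in the top 12.6%, 46.4% and 40.1% in C57, BALB and NOD. PU1 was likewise higher in basal PWK and SPRET cells, with basal counts of 169 in SPRET, 149 in PWK, 39 in NOD, 50 in C57 and 31 in BALB against 181, 211, 210, 236 and 140 at 24 h. EGR2 at 24 h in C57 had counts of 154 at the 2.87 kb site and 132 at the 4.21 kb site, neither with a basal peak, and 215 at the 16.04 kb site, where the basal count was 66.

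A peak present at 24 h without a basal peak of the same factor and strain was counted as gained. In C57 this held for 4 of 8 STAT6 peaks of the locus, 5 of 6 EGR2 peaks, 5 of 7 PPARg peaks, 4 of 10 PU1 peaks and 1 of 4 CEBPb peaks, and none was lost. Over the whole lists the gained share was 41.2% for STAT6, 72.5% for EGR2, 84.0% for PPARg, 18.9% for PU1 and 53.8% for CEBPb. These shares depend on the lengths of the lists, which for EGR2 held 8437 peaks in basal cells and 29407 at 24 h. When lists of equal length were compared, the gained peaks in C57 were 3 of 7 for STAT6 (33.7% of the list), 1 of 2 for EGR2 (23.9%), 3 of 5 for PPARg (44.7%), 3 of 9 for PU1 (16.7%) and 0 of 3 for CEBPb (20.5%). In NOD, EGR2 had 1 peak gained and 3 lost at the locus, but its 24 h list was the shorter, with 16604 peaks against 25341 in basal cells, of which 41.8% were lost, and at equal length 1 peak was gained and none was lost (21.2% of the list each way). The site 0.67 kb upstream, closest to the Arg1 start among the recurrent sites, was in 23 lists, with peak centres spread over chr10:24927562-24928180. It had PU1 in all 5 strains under both conditions, STAT6 in all 5 strains at 24 h but in basal cells of C57 only, EGR2 at 24 h in BALB, PWK and SPRET and at 1 and 6 h in C57, and neither PPARg nor CEBPb. STAT6 at this site had a count of 21 in basal C57 BMDMs, 321 at 1 h, 162 at 6 h and 108 at 24 h.

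The tag tables asked how histone marks and Pol II at these regions responded to IL-4 in each strain. H3K27ac at the region 2.87 kb upstream (chr10:24929853-24930853 in C57, between genes), the region of the locus with most H3K27ac beyond 1 kb from the start, was higher at 24 h than in basal cells in the means of all 5 strains. C57 held 104 and 134 tags in the basal libraries and 272 and 279 at 24 h. BALB held 54.4 and 32.2 in basal cells and 389 and 140.1 at 24 h, and NOD held 119.7 and 105 against 425 and 344. In these 3 strains every 24 h library was above every basal library. PWK held 494 and 178 in basal cells and 794 and 240.5 at 24 h, and its groups overlapped. SPRET held 247 and 248 against 778 and 316, which did not overlap. The log2 differences (log2 of tags + 1, ± SE, limma, Benjamini-Hochberg adjusted over all regions of the strain's table) were 1.21 ± 0.34 in C57 (adjusted p = 0.136), 2.45 ± 0.72 in BALB (adjusted p = 0.0338), 1.76 ± 0.42 in NOD (adjusted p = 0.176), 0.56 ± 0.65 in PWK (adjusted p = 0.850) and 1.00 ± 0.42 in SPRET (adjusted p = 0.332). The increase passed the threshold of 0.05 in BALB only. The BALB call was lost without 24 h replicate 1 (log2 1.72, adjusted p = 0.0667), without basal replicate 1 (2.82, adjusted p = 0.655) or without basal replicate 2 (2.08, adjusted p = 0.981). With DESeq2 on the read counts recovered from the tags, C57 (adjusted p = 0.0256) and NOD (adjusted p = 0.00193) also passed.

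At the region 4.18 kb upstream (chr10:24931160-24932160 in C57, between genes) basal H3K27ac was low in C57, BALB and NOD and the difference at 24 h was greater than at 2.87 kb in each strain. C57 held 10.2 and 25.7 tags in basal cells against 97.6 and 133 at 24 h. BALB held 11.8 and 7.74 against 87.4 and 54.3, and NOD held 7.48 and 26.2 against 97.6 and 141. PWK held 182 and 50.1 in basal cells and 631 and 212 at 24 h, and SPRET held 70.1 and 107 against 389 and 258. The groups did not overlap in any strain, and the basal libraries of PWK and SPRET held more tags than those of the other strains, whose tables were made separately and were not tested against each other. The log2 difference was 2.73 ± 0.55 in C57 (adjusted p = 0.114), 2.73 ± 0.57 in BALB (adjusted p = 0.000388), 2.96 ± 0.65 in NOD (adjusted p = 0.149), 1.92 ± 0.63 in PWK (adjusted p = 0.239) and 1.86 ± 0.37 in SPRET (adjusted p = 0.0174). BALB and SPRET passed. The BALB call was lost without basal replicate 2 (2.45, adjusted p = 0.181), and the SPRET call was lost when any 1 of its 4 libraries was left out (adjusted p = 0.124 to 0.604). The NOD difference passed without basal replicate 2 (3.80, adjusted p = 7.14e-05) and the PWK difference without basal replicate 1 (2.84, adjusted p = 0.0244). With DESeq2, C57 (adjusted p = 0.000161) and NOD (adjusted p = 0.00109) passed.

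Taken over all regions of the locus, H3K27ac was called higher at 0 of 7 in C57, 5 of 5 in BALB, 0 of 5 in NOD, 0 of 5 in PWK and 1 of 7 in SPRET, and lower at none. The limma calls of higher H3K27ac over the whole tables came to 1.6% of regions in BALB, 0.994% in SPRET, 0.487% in PWK, 0.0566% in NOD and 0% in C57. The counts of 0 go with tables that had few or no calls. They were higher when the replicate number was fitted as a block, as given in the closing section. At an unadjusted p under 0.05, limma had 5 of 7 regions of the locus higher in C57, 5 of 5 in NOD, 4 of 5 in PWK and 5 of 7 in SPRET, against 6.91%, 5.53%, 5.16% and 6.31% of all regions. DESeq2 called 4 of 7 higher in C57, 4 of 5 in NOD and 1 of 5 in PWK, against 2.17%, 1.35% and 0.967%, while edgeR called none of these. The median log2 difference over the regions of the locus was 2.45 in BALB, 1.34 in SPRET, 1.78 in PWK, 1.85 in NOD and 1.60 in C57, against medians over all regions of -0.30, -0.09, -0.18, -0.20 and -0.28. By the fold rule (at least 2.5-fold between group means of tags + 1 and at least 16 tags, with no test), 5 of 5, 2 of 7, 3 of 5, 5 of 5 and 3 of 7 regions were higher in the same order of strains, against 2.84%, 2.64%, 3.1%, 3.24% and 3.46% of all regions.

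**Figure D2:**
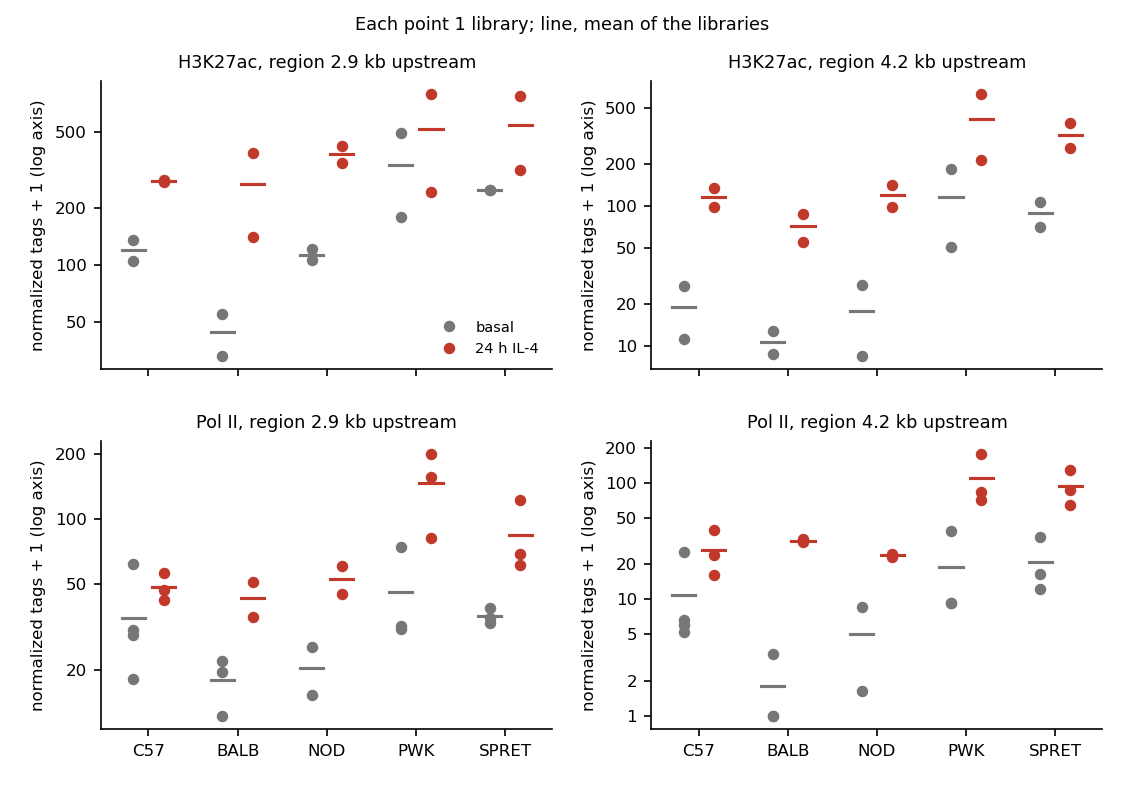
Normalized tags per 10000000, plotted as tags + 1 (log axis), of H3K27ac and Pol II at the regions 2.87 and 4.18 kb upstream of Arg1 in basal and 24 h IL-4 libraries of the 5 strains, each point 1 library and each line a group mean. At the 4.18 kb region the H3K27ac libraries of the 2 conditions do not overlap in any strain, and the basal libraries of PWK and SPRET lie above those of C57, BALB and NOD.

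Of the remaining regions, those farther from Arg1 and the one at its start were read in the same way. The region 24.97 kb downstream, in an intron of Med23 (25.4 kb in BALB, NOD and PWK, absent from the SPRET table), held 2.71 and 4.28 H3K27ac tags in basal C57 BMDMs and 33.95 and 39.4 at 24 h, a log2 difference of 3.09 ± 0.53 (adjusted p = 0.108). It was 3.27 ± 0.56 in BALB (2.94 and 4.77 against 51.2 and 39.5, adjusted p = 2.38e-06), 3.40 in NOD (adjusted p = 0.077) and 1.81 in PWK (adjusted p = 0.110), where the basal libraries held 39.5 and 57.9 tags. At 22.87 kb upstream the difference was 2.12 in BALB (adjusted p = 0.0131, lost when any 1 of the 4 libraries was left out), and it was 1.08 in C57, 1.83 in NOD, 1.78 in PWK and 0.82 in SPRET, none past the threshold. The region at the Arg1 start, centred 0.744 kb upstream, within an intron of Gm36172 and not covering the start itself, was present in the C57 tables only. It held 66.5 and 60.6 tags of H3K27ac in basal cells and 178 and 212 at 24 h, a log2 difference of 1.60 ± 0.36 (adjusted p = 0.117, DESeq2 adjusted p = 0.00282).

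Pol II was read from the same regions, with 2 to 4 libraries a group. At 2.87 kb upstream PWK held 73.4, 30.1 and 31.1 tags in basal cells and 198, 80.8 and 156 at 24 h, and the groups did not overlap (log2 1.70 ± 0.39, adjusted p = 0.0393). SPRET held 37.7, 31.98 and 33.9 against 122, 67.9 and 60.0, which likewise did not overlap (1.18 ± 0.29, adjusted p = 0.0862). With the replicate number as a block, which the check of pairing allowed for Pol II of SPRET, the SPRET difference passed (1.18, adjusted p = 0.00233). C57 held 61.2, 28.1, 29.5 and 17.2 in basal cells and 55.4, 46.0 and 41.04 at 24 h, so its groups overlapped through the highest basal library (0.60, adjusted p = 0.794). BALB differed by 1.28 (adjusted p = 0.649) and NOD by 1.39 (adjusted p = 0.459). The PWK call at 2.87 kb was lost when any library but basal replicate 1 was left out.

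At 4.18 kb upstream the Pol II difference was larger in every strain. BALB held 0, 2.37 and 0 tags in basal cells (0, 4 and 0 reads) and 29.8 and 31.7 at 24 h (14 and 40 reads), a log2 difference of 4.41 ± 0.74 (adjusted p = 6.64e-06) that fell to 2.65 with a pseudocount of 5 (adjusted p = 2.71e-06). PWK held 37.4, 8.39 and 8.33 against 175, 70.0 and 82.1 (2.76 ± 0.50, adjusted p = 0.0121), and SPRET held 15.5, 33.5 and 11.3 against 128, 86.2 and 63.7 (2.24 ± 0.39, adjusted p = 0.0218). In each of these strains all 24 h libraries were above all basal libraries. NOD held 0.65 and 7.53 against 23.7 and 22.3 (2.68, adjusted p = 0.459). C57 held 24.3, 5.62, 4.29 and 5.06 against 15.3, 38.7 and 23.1 (1.55, adjusted p = 0.346), and without basal replicate 1, the highest of its group, the difference was 2.07 (adjusted p = 0.0457). The BALB call was lost without basal replicate 3 (adjusted p = 0.759), and the PWK and SPRET calls were each lost on leaving out 4 of their 6 libraries in turn: 24 h replicates 2 and 3 and basal replicates 2 and 3 in PWK, and 24 h replicates 1 and 2 and basal replicates 1 and 3 in SPRET. Pol II was called higher at 0 of 7 regions in C57, 1 of 5 in BALB, 0 of 5 in NOD, 4 of 5 in PWK and 1 of 7 in SPRET, against 0.223%, 0.663%, 0%, 1.44% and 0.782% of all regions. At an unadjusted p under 0.05 limma had 3 of the 7 C57 regions and 2 of the 5 NOD regions higher, against 3.86% and 4.61% of all regions, DESeq2 called 1 and 0, and edgeR called 0 and 0. With the block, 5 of 5 regions in PWK and 3 of 7 in SPRET were called, against 5.96% and 3.56% of all regions.

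**Figure D3:**
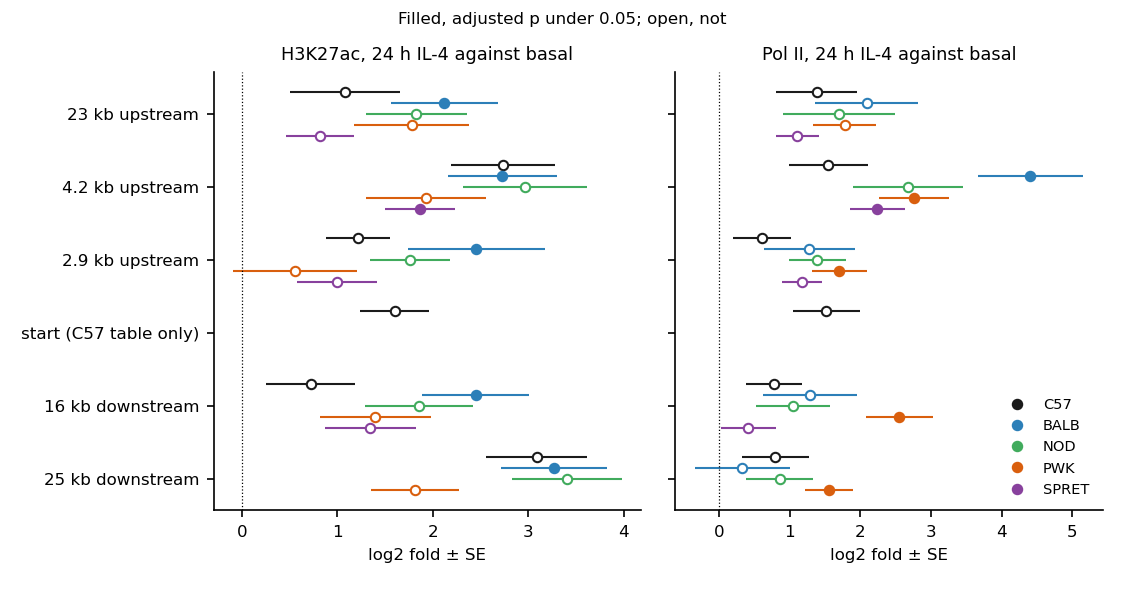
Log2 difference between 24 h IL-4 and basal BMDMs (± SE, limma) of H3K27ac and Pol II by region of the locus and strain, with filled symbols for an adjusted p under 0.05. Most values lie above 0, and the filled H3K27ac symbols are those of BALB and of SPRET at 4.18 kb upstream.

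H3K4me2 had few calls over the same 24 h. Its median log2 ratio of group means (tags + 1) over the locus was -0.25 in C57, 0.24 in BALB, 0.30 in NOD, 0.34 in PWK and 0.61 in SPRET. Over all regions the medians were -0.66, -0.56, -0.31, -0.18 and -0.48 in the same order. H3K4me2 was called higher at 1 of 7 regions in C57, that at 24.97 kb downstream. This region held 2.45 and 3.52 tags in basal cells and 24.0 and 24.2 at 24 h (log2 2.67, adjusted p = 0.00206). The same region in NOD held 3.64 and 4.35 against 16.6 and 15.9 (log2 1.79, adjusted p = 0.185). The C57 call was lost without 24 h replicate 2 or basal replicate 1. No region of BALB, NOD, PWK or SPRET was called by limma, edgeR or DESeq2 (0, 1, 1 and 2 regions at an unadjusted limma p under 0.05, against 0.746%, 1.97%, 3.2% and 1.05% of all regions). The calls of higher H3K4me2 came to 0.311% of all regions in PWK, 0.179% in C57, 0.167% in NOD, 0.0111% in BALB and 0% in SPRET. At 2.87 kb upstream, where H3K27ac rose in BALB, H3K4me2 held 26.5 and 20.2 tags in basal BALB cells and 45.1 and 10.4 at 24 h. H3K4me3, the promoter mark, was at the start region of C57 with 42.2 and 26.3 tags in basal cells and 39.1 and 39.8 at 24 h, and at no other region of the strain tables did a library exceed 9.69 tags. That region (chr10:24927728-24928728) lies upstream of the Arg1 start without covering it, and the other strains had none within 1 kb. H3K4me3 at the start itself was therefore not read in any strain. No H3K4me3 region was called in any strain, against 0%, 0%, 0.016%, 0.0316% and 0% of all regions in the order C57, BALB, NOD, PWK and SPRET, and edgeR and DESeq2 also called none of the locus. At an unadjusted p under 0.05 limma had 1 H3K4me3 region higher in each of C57, BALB, NOD and SPRET and none in PWK, against 7.62%, 3.03%, 3.79%, 3.82% and 3.74% of all regions.

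The C57 time course asked when these changes appear. It shares its basal and 24 h libraries with the C57 table, and its larger set of regions had 12 at the locus. H3K27ac was higher at 6 h than at 24 h in the group means of the regions named here. The 1 h means were also higher, but not in both libraries. At 4.18 kb, at the start and at 2.87 kb, 1 h replicate 2 held fewer tags than either 24 h library. Of the tags of that library 20.5% fell in regions, against 44.0% in 1 h replicate 1. At 4.18 kb upstream it held 10.2 and 24.96 tags in basal cells, 271 and 36.5 at 1 h, 384 and 230.0 at 6 h and 95.1 and 127 at 24 h. The 1 h libraries stood far apart, but each time was above the basal libraries. The log2 difference from basal was 2.57 at 1 h (adjusted p = 0.0386), 4.13 at 6 h (adjusted p = 0.00427) and 2.70 at 24 h (adjusted p = 0.074). The 1 h call was lost without either basal library, 1 h replicate 1 or either 6 h library, and the 6 h call without 6 h replicate 1 (adjusted p = 0.12) or replicate 2 (adjusted p = 0.0582). At the start, 0.805 kb upstream by this table's centre, H3K27ac held 65.1 and 59.9 in basal cells, 434 and 123 at 1 h, 555 and 233 at 6 h and 178 and 203 at 24 h. Of these the 6 h difference passed (2.51 ± 0.64, adjusted p = 0.0302), and it no longer did when any basal or 6 h library was left out. The region 2.87 kb upstream held 592 and 124 at 1 h and 689 and 368 at 6 h, and its differences of 1.20, 2.08 and 1.21 at 1, 6 and 24 h did not pass (adjusted p = 0.226, 0.0781 and 0.359). Without 1 h replicate 2 the 1 h difference there was 2.32 (adjusted p = 0.017), and without either 1 h library the 6 h difference passed. The Med23 region 24.97 kb downstream passed at each time, with 3.11, 4.06 and 3.09 (adjusted p = 0.0155, 0.0025 and 0.0261). The 1 h call there was lost without basal replicate 2, the 6 h call without 6 h replicate 1 and the 24 h call without basal replicate 1 or any 6 h or 24 h library. Of the 12 regions, 5 were called higher at 1 h, 7 at 6 h and 1 at 24 h, against 1.37%, 2.67% and 1.13% of all regions.

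Among the 12 regions of the time course at the locus, Pol II after IL-4 was highest past the 3′ end of Arg1. None of these regions covers the Arg1 start or lies within the gene, so Pol II there was not read. The region 13.17 kb downstream of the start, between the ends of Arg1 and Med23, held 19.3, 8.83, 8.58 and 7.09 tags in basal cells, 856 in the single 1 h library (assumed in the test to vary like the other groups), 1497 and 328 at 6 h and 49.4, 365 and 37.2 at 24 h. Every IL-4 library was above every basal one. The log2 difference was 6.26 ± 0.94 at 1 h (adjusted p = 0.0225), 5.98 ± 0.73 at 6 h (adjusted p = 0.00131) and 2.996 ± 0.64 at 24 h (adjusted p = 0.0385). At 24 h, replicate 2 held far more tags than the other libraries, and without it the difference was 1.97 (adjusted p = 0.19). That call was also lost without 24 h replicate 1 or any 1 of basal replicates 2, 3 and 4, the 1 h call without any 1 of basal replicates 2, 3 and 4, and the 6 h call without 6 h replicate 1 (4.88, adjusted p = 0.123). The neighbouring regions at 13.7 and 14.7 kb behaved alike, with 802 and 460.0 tags at 1 h against at most 20.6 and 10.6 in basal cells. Their 1 h and 6 h differences passed, with losses on leaving out basal replicates 2, 3 or 4 or 24 h replicate 1 (1 h) and 6 h replicate 1 (6 h). Their 24 h differences were 3.18 (adjusted p = 0.0621) and 2.52 (adjusted p = 0.104). Both passed with the replicate block (2.72, adjusted p = 0.0135, and 2.59, adjusted p = 0.0196), with edgeR and DESeq2, without basal replicate 1 (3.67, adjusted p = 0.0113, and 2.76, adjusted p = 0.0439) and without 24 h replicate 3 (3.75, adjusted p = 0.0332, and 3.08, adjusted p = 0.0463), and the first also with median-ratio scaling (adjusted p = 0.0388). The tags carry no strand, so reads from the ends of Arg1 and Med23 cannot be told apart. Further inside Med23, the region 16 kb downstream held 26.2, 24.1, 23.1 and 16.2 tags in basal cells, 116 at 1 h (log2 difference 2.34 ± 0.69, adjusted p = 0.201), 296 and 58.99 at 6 h (2.53 ± 0.53, adjusted p = 0.0393) and 34.7, 62.8 and 25.7 at 24 h (0.77, adjusted p = 0.696). Its 6 h call was lost without 6 h replicate 1 (1.38, adjusted p = 0.697), 24 h replicate 1 or any 1 of basal replicates 2, 3 and 4. The 3 regions beyond it held 14.2 to 24.4 tags at 1 h and were not called at that time.

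Upstream, Pol II at 6 h was called at the start region (142.9 and 83.9 tags against 41.2, 22.5, 19.3 and 9.11 in basal cells, log2 2.38, adjusted p = 0.0448) and at 4.18 kb (82.1 and 49.2 tags, log2 2.92, adjusted p = 0.0329). Both calls were lost without any 1 of basal replicates 2, 3 and 4 or either 6 h library, and that at the start also without 24 h replicate 1. At 2.87 kb Pol II held 100.5 tags at 1 h, 118 and 68.7 at 6 h and 55.4, 45.5 and 41.04 at 24 h, and was not called at any time. Of 12 regions, Pol II was called higher at 3 at 1 h, 6 at 6 h and 1 at 24 h, against 0.0462%, 0.428% and 0.503% of all regions.

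**Figure D4:**
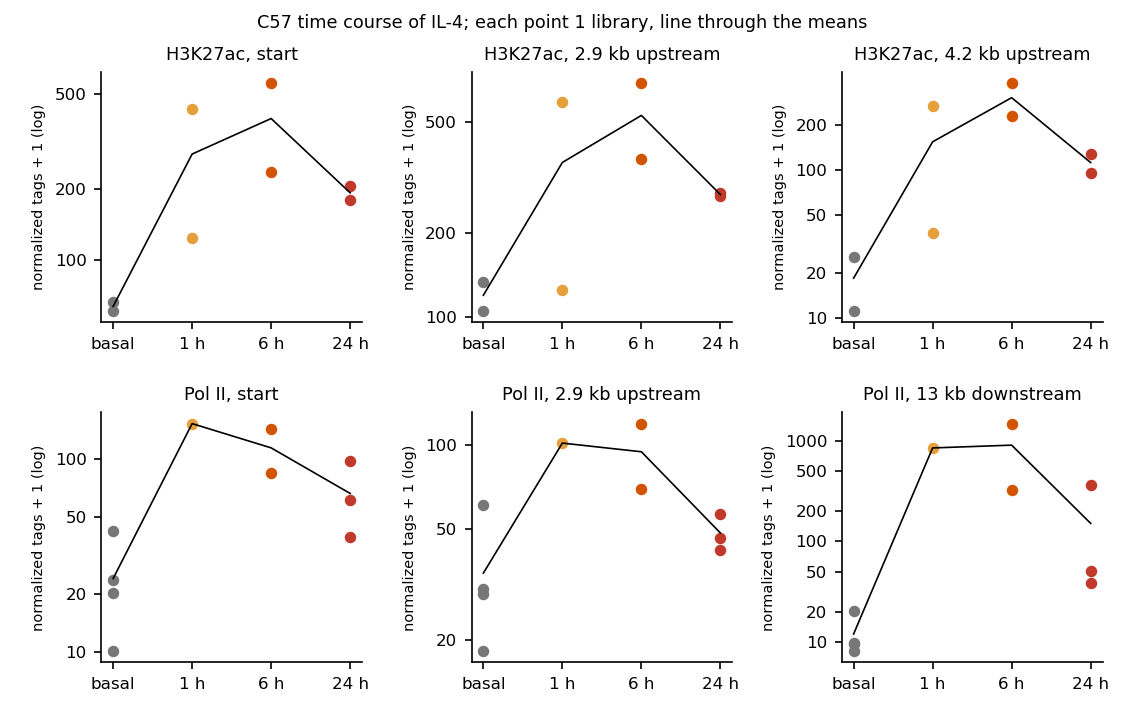
Normalized tags per 10000000, plotted as tags + 1 (log axis), of H3K27ac and Pol II at regions of the Arg1 locus in C57 BMDMs before and 1, 6 and 24 h after IL-4, each point 1 library and lines through the group means. Pol II 13.17 kb downstream of the start goes from at most 19.3 tags in basal cells to 856 at 1 h, and its 24 h libraries spread from 37.2 to 365.

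EGR2 itself was measured over 7 sites of the locus in the C57 time course. At 0.37 kb upstream it held 1.87 and 4.03 tags in basal cells, 25.3 and 27 at 1 h, 40.2 and 53.0 at 6 h and 12.1 and 22.1 at 24 h, so every IL-4 library was above both basal libraries. The log2 differences there were 2.84, 3.63 and 2.2 (adjusted p = 0.841, 0.407 and 0.838). At 2.88 kb upstream the libraries of 1 and 6 h stood far apart, and the groups overlapped, with 41.2 and 22.8 in basal cells, 8.13 and 111 at 1 h, 20.9 and 205 at 6 h and 53.4 and 142 at 24 h. No EGR2 site of the locus was called at any time, against 0%, 0% and 0% of all 30675 sites. At an unadjusted p under 0.05 limma had 1 of the 7 sites higher at each time, against 0.359%, 3.47% and 3.38% of all sites at 1, 6 and 24 h. DESeq2 called the site 0.37 kb upstream at 1 h (adjusted p = 0.00518) and 6 h (adjusted p = 0.00701), and edgeR called none.

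The comparison of Egr2 genotypes asked how the loss of EGR2 in myeloid cells affects the sites it binds. Its tables hold 4677 EGR2 sites picked by the study for IL-4-gained EGR2 binding in C57 cells, 4 of them at the locus, and no EGR2 data of these genotypes, so the deletion was not checked here. H3K27ac at 2.88 kb upstream rose with IL-4 in both genotypes. Egr2 fl/fl BMDMs held 166 and 158 tags in basal cells and 348 and 369 at 24 h (log2 1.14 ± 0.20, adjusted p = 0.00052). LyzM-Cre Egr2 fl/fl BMDMs held 101 and 132 in basal cells and 422 and 373 at 24 h (1.77 ± 0.20, adjusted p = 8.68e-06). The genotypes differed by 0.15 ± 0.20 at 24 h (adjusted p = 0.646), and the IL-4 effects differed between genotypes by 0.63 ± 0.28 (adjusted p = 0.356). The 24 h value depends on the scaling: edgeR gave 0.69 (adjusted p = 0.0117), DESeq2 0.69 (adjusted p = 0.0182) and median-ratio scaling 0.68 (adjusted p = 0.0186), all higher in LyzM-Cre Egr2 fl/fl. All of these settings rescale the libraries on the same 4677 sites, picked for EGR2 binding. They share the assumption that those sites do not change as a set, so they are not separate evidence of a higher value.

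At 4.18 kb upstream H3K27ac also rose in both genotypes. Egr2 fl/fl held 28.97 and 40.1 tags in basal cells and 171 and 161 at 24 h (log2 2.25, adjusted p = 1.08e-05), and LyzM-Cre Egr2 fl/fl held 34.1 and 24.1 against 153 and 135 (2.29, adjusted p = 7.99e-06). The genotypes differed by -0.20 at 24 h (adjusted p = 0.611), with the opposite sign under median-ratio scaling, edgeR and DESeq2. At 22.87 kb upstream the rise was 1.19 (adjusted p = 0.00176) and 1.55 (adjusted p = 0.000243). At 42.9 kb downstream, in an intron of Med23, H3K27ac rose in Egr2 fl/fl from 0 and 3.39 to 19.1 and 15.4 tags (3.12, adjusted p = 0.00216), and in LyzM-Cre Egr2 fl/fl the libraries held 5.01 and 2.24 against 6.23 and 6.96 (0.78, adjusted p = 0.499). The difference between these IL-4 effects was -2.33 (adjusted p = 0.287). H3K27ac was called higher with IL-4 at 4 of 4 sites in Egr2 fl/fl and 3 of 4 in LyzM-Cre Egr2 fl/fl, against 25.6% and 14.4% of all 4677 sites. None of the 4 was called lower in LyzM-Cre Egr2 fl/fl at 24 h, where 23.2% of all sites were and the median over all sites was -0.50. At an unadjusted p under 0.05 none of the 4 was lower either, against 33.7% of all sites, and edgeR and DESeq2 called none lower. With a pseudocount of 5 the site 42.9 kb downstream was called lower (-0.94, adjusted p = 0.0373), where 27.3% of all sites were.

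STAT6 at 2.88 kb upstream rose with IL-4 in Egr2 fl/fl, from 11.3 and 13.2 tags to 112 and 87.6 (log2 2.92 ± 0.51, adjusted p = 0.000553), a call lost without 24 h replicate 1 of that genotype. In LyzM-Cre Egr2 fl/fl it held 18.9 and 10.1 in basal cells and 55.7 and 42.8 at 24 h, where the groups did not overlap but the difference of 1.74 did not pass (adjusted p = 0.0895). The difference between genotypes at 24 h was -1.01 ± 0.51 (adjusted p = 0.339), and that between IL-4 effects was -1.18 (adjusted p = 0.688). STAT6 was called higher with IL-4 at 1 of 4 sites in Egr2 fl/fl and 0 of 4 in LyzM-Cre Egr2 fl/fl, against 11.8% and 1.2% of all sites. In LyzM-Cre Egr2 fl/fl limma had 2 of 4 higher at an unadjusted p under 0.05, against 9.6% of all sites, and edgeR and DESeq2 called none. The replicate block called that at 2.88 kb (adjusted p = 1.95e-05), but these groups share a number over 2 pairs only, too few to settle whether libraries were paired. None was called lower by genotype, against 0.0214% of all sites, and none had an unadjusted p under 0.05 or a call by edgeR or DESeq2.

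With limma as used here, PU1 gave the single genotype call of the locus, which other settings lost or added to. At 4.18 kb upstream it held 60.4 and 43.8 tags in basal Egr2 fl/fl cells and 139.7 and 104 at 24 h, against 27.96 and 30.9 and then 64.6 and 67.2 in LyzM-Cre Egr2 fl/fl, where every library was below those of Egr2 fl/fl under the same condition. The difference at 24 h was -0.86 ± 0.21 (adjusted p = 0.0182), that in basal cells was -0.79 (adjusted p = 0.266), and the IL-4 effects of 1.21 (adjusted p = 0.00269) and 1.14 (adjusted p = 0.00532) differed by -0.07 (adjusted p = 0.964). Over all sites the median PU1 difference at 24 h was -0.33, and the call was lost with median-ratio scaling (adjusted p = 0.0835), with DESeq2 (adjusted p = 0.187) and on leaving out any 1 of the 4 libraries at 24 h. At 2.88 kb upstream PU1 held 177 and 184 in basal Egr2 fl/fl cells and 224 and 274 at 24 h (0.46, adjusted p = 0.0363), against 181 and 155 and then 226 and 234 in LyzM-Cre Egr2 fl/fl (0.45, adjusted p = 0.071). PU1 was called higher with IL-4 at 2 of 4 sites in Egr2 fl/fl and 1 of 4 in LyzM-Cre Egr2 fl/fl, against 8.19% and 2.8% of all sites, and lower by genotype at 1 of 4, against 9.36%.

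PPARg at 4.18 kb upstream also differed between the genotypes in its values, without a call. It held 38.3 and 0 tags in basal Egr2 fl/fl cells and 268 and 251 at 24 h, against 80.9 and 92.8 and then 68.8 and 67.2 in LyzM-Cre Egr2 fl/fl. The IL-4 effect in Egr2 fl/fl was 5.38 (adjusted p = 0.147), the genotype difference at 24 h was -1.92 (adjusted p = 0.537) and the difference between IL-4 effects was -5.72 (adjusted p = 0.352). At 2.88 kb upstream PPARg held 25.5 and 18.2 in basal Egr2 fl/fl cells and 229 and 143 at 24 h, against 44.7 and 44.8 and then 75.1 and 49.1 in LyzM-Cre Egr2 fl/fl. Over all regions without a filter, PPARg was called at none of the 4 sites by limma, edgeR or DESeq2 for these contrasts, against 0%, 0% and 0% of all sites for IL-4 in each genotype and for lower values by genotype. Here the median over all sites was 1.66 for IL-4 in Egr2 fl/fl and -1.28 for genotype at 24 h, and limma had 4 of 4 sites higher with IL-4 in Egr2 fl/fl and 3 of 4 lower by genotype at an unadjusted p under 0.05, against 20.1% and 14% of all sites. A filter on low values (a group mean of at least 16 tags) changed this. With it, limma called 3 of 4 sites higher with IL-4 in Egr2 fl/fl (23.4% of the 1618 sites kept), 2 of 4 with a lower IL-4 effect in LyzM-Cre Egr2 fl/fl (3.09%) and 1 of 4 higher by genotype in basal cells (0.865%). The 4.18 kb site was among them each time (adjusted p = 2.55e-08, 0.00068 and 0.00157), though its basal Egr2 fl/fl libraries, 38.3 and 0 tags, stood far apart. Replicate PPARg libraries of these groups correlated at only 0.334 to 0.597 (r of log2 tags) over all sites. The filter kept a site if any group reached 16 tags, so sites could enter through the group where they were high.

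CEBPb at 4.18 kb upstream held 3.26 and 13.9 tags in basal Egr2 fl/fl cells and 55.0 and 34.9 at 24 h (log2 2.49, adjusted p = 0.0973), against 3.63 and 5.15 and then 16.96 and 15.01 in LyzM-Cre Egr2 fl/fl. CEBPb was called at none of the 4 sites for IL-4 in Egr2 fl/fl, for IL-4 in LyzM-Cre Egr2 fl/fl or for lower values by genotype, against 2.1%, 0% and 8.25% of all sites, and H3K4me2 at none, against 8.06%, 1.13% and 8.94%. At an unadjusted p under 0.05 limma had 2, 0 and 1 of the 4 CEBPb sites, against 18.1%, 3.49% and 27.5% of all sites, and 1, 2 and 0 of the 4 H3K4me2 sites, against 17.3%, 6.31% and 19.8%, and edgeR and DESeq2 called none. With a pseudocount of 5, CEBPb was called higher with IL-4 in Egr2 fl/fl at 2 of 4 sites (9.09% of all sites), that at 4.18 kb (1.97, adjusted p = 0.0398) among them, and lower by genotype at 1 of 4 (15.6%), that 42.9 kb downstream. The replicate block also called the latter (adjusted p = 0.0494), over 2 pairs only, too few to settle whether libraries were paired. Pol II had a single usable library a group and was not tested. It held 11.7 tags at 4.18 kb in basal Egr2 fl/fl cells and 45.1 at 24 h, and 5.85 and 25.3 in LyzM-Cre Egr2 fl/fl.

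**Figure D5:**
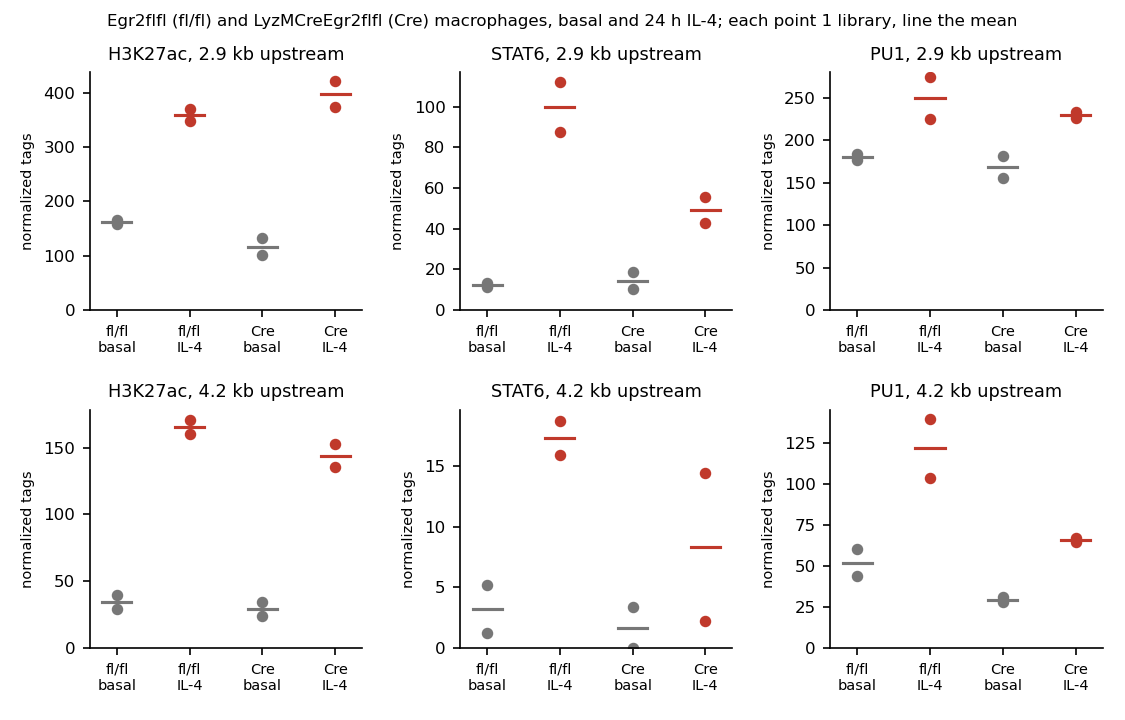
Normalized tags per 10000000 (linear axis from 0) of H3K27ac, STAT6 and PU1 at the sites 2.88 and 4.18 kb upstream of Arg1 in basal and 24 h IL-4 BMDMs of Egr2 fl/fl and LyzM-Cre Egr2 fl/fl mice, each point 1 library and each line a group mean. PU1 at 4.18 kb is lower in LyzM-Cre Egr2 fl/fl in both conditions, while H3K27ac of the genotypes is close at 24 h.

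Other genes of arginine metabolism were read at the region nearest their start, within 1 kb. The list held Arg2, Nos2, Ass1, Asl, Odc1, Oat, Srm, Sms, Amd1, Azin1, Slc7a1, Slc7a2, Slc3a2, Pycr1, Aldh18a1, Agmat and Gatm, 17 genes of which Agmat had no region, nor Slc7a2 in PWK. Slc7a2, which encodes a transporter of cationic amino acids, was the single gene of the list called for H3K27ac at 24 h, higher in BALB (log2 3.59) and SPRET (2.45), and none was called lower. Its H3K27ac differences in C57 (4.79, adjusted p = 0.106) and NOD (3.47, adjusted p = 0.108) did not pass. Pol II at the Slc7a2 start was called higher in C57 (3.93, adjusted p = 0.0265), BALB (4.45) and SPRET (2.26). In the time course its H3K27ac was higher by 3.79, 5.72 and 4.90 at 1, 6 and 24 h, each past the threshold. The median H3K27ac difference of the list was -0.07 in BALB, 0.11 in SPRET, -0.23 in PWK, -0.07 in NOD and -0.22 in C57, near the medians of all regions given above.

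The genes whose H3K27ac at the start was most like that of the Arg1 locus were looked for over the 20 H3K27ac libraries of the 5 strain tables. Because a region at the Arg1 start was in the C57 tables only, the region 2.87 kb upstream stood for Arg1, a choice made after the tables were seen. Among 8894 genes the highest Pearson correlations of log2 tags were those of Tmem26 (0.856), Tarm1 (0.850), Itgax (0.843), Sh2b2 (0.843) and F10 (0.810). These libraries share strain and condition, so the values describe likeness over them and carry no p.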

How the data were processed

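Tag tables and factor peak lists deposited by the authors were used. Per the study's methods, reads were aligned with Bowtie2 to the genome of the mouse's own strain, positions were shifted to mm10, and HOMER counted tags over merged regions and scaled each library to 10000000 tags. The deposited tag values were therefore handled as a normalized signal. Peak lists hold 1 set of peaks per group, per the study's methods kept by reproducibility between replicate libraries. Each has a deposited score and a tag count treated as a signal of unstated scaling. The lists were of different kinds. Those of PPARg, and of EGR2 outside C57, had a plain score and a median peak width of 200 bp. The others had a score labelled as one of reproducibility and median widths of 213 to 250 bp. EGR2 lists of C57 and of the other strains thus differ in kind. There were 4 tag columns that could not be matched to a sample and were not used. This left Pol II of the Egr2 genotypes with 1 library a group.

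Groups followed the labels. log2(tags + 1) was tested with limma 3.58.1 (trended empirical Bayes, R 4.3.3) over all regions of a table without a filter, with Benjamini-Hochberg adjustment and a threshold of 0.05, all tests two-sided. Strain tables were fitted per strain and mark, time courses over all times, and Egr2 tables by genotype, IL-4 and their interaction. Multiplied by the library total in the headers, 100% of the values lay within 0.05 of a whole read, and these reads were used for edgeR 4.0.16 (quasi-likelihood, TMM) and DESeq2 1.42.0 as alternatives, beside a pseudocount of 5, a minimum of 16 tags (8 for Pol II), median-ratio scaling, a replicate block and leaving out each library. Over all regions of H3K27ac at 24 h, limma, edgeR and DESeq2 called 0, 169 and 2103 in C57 and 39, 0 and 1217 in NOD. The limma step was tested on simulated data. Replicate libraries differed by more than counting noise (chi-square per degree of freedom of 1.41 to 17.5 in 99 comparisons).

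Same-numbered Pol II libraries at 24 h and in basal cells deviated together in C57 (r = 0.118 to 0.240), PWK (0.201 to 0.469) and SPRET (0.224 to 0.310), each over 3 pairs, so the blocked value is given where it changes a call. Same-numbered H3K27ac libraries also deviated together, with r = 0.470 in C57, 0.435 in BALB, 0.492 in NOD, 0.441 in PWK and 0.261 in SPRET. This was over 2 pairs a strain, too few to settle whether libraries were paired. The replicate numbers come from the labels, which name no shared animal or day. Every member was counted. The naming rule took the region nearest the start (within 1 kb), the region beyond 1 kb with the highest mean H3K27ac in C57, both matched between tables by centres within 500 bp, the listed arginine genes, the neighbouring genes and the 5 genes with the highest Pearson correlation. Every other region given by its position lies outside that rule and was chosen after its values were seen. The gene lists, members and tests were chosen with earlier results of these data known. RefSeq promoters were used for motif shares only. Another of the cell type marker checks is not reported here.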

Additional observations from a re-analysis of the deposited data

Results flagged for a closer look

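Basal Pol II in C57 BMDMs had 1 library, replicate 1 except where said, far above the other 3 of its group. At 4.18 kb upstream it held 24.33 tags against 5.62 in the next library, in the strain table and in the time-course table, which share these libraries. At 22.87 kb upstream it held 11.86 against 3.04, again in both tables. At 13.17 kb downstream in the time course it held 19.34 against 8.83. At 25.3 kb upstream the highest was a different library, replicate 4, with 2.03 tags and the others 0, a value near the floor. Chance would mark about 1 in 20 groups, and 19 groups of 4 or more libraries were looked at, which share libraries and neighbouring regions.

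H3K4me2 at 15.97 kb downstream, in an intron of Med23, moved in opposite directions with IL-4, each strain without overlap of its libraries. The log2 difference was -0.887704 in C57, where the libraries held 45.7 and 48.6 tags in basal cells and 34.1 and 18.3 at 24 h, and it was 0.532398 in BALB and 0.661654 in SPRET. The medians of the same difference over all regions were -0.69 in C57, -0.63 in BALB and -0.48 in SPRET, and with median-ratio scaling the values at this region were -0.21, 1.08 and 1.11. None of these passed the threshold, 28 pairs of region and mark were compared between strains in this way, and the difference itself was not tested because each strain has a table of its own.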

How the results depend on the processing

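Over 140 log2 differences, 1507 alternative values kept their direction and their side of the threshold, 121 came past it, 132 lost it and 48 changed sign. Of the alternative counts, 125 stayed within 1.5 times the reported count and 90 did not. The cause of the changes was not tested, apart from those set by fewer libraries or fewer regions. With 2 libraries a group and 4691644 to 29050468 tags a library, limma's calls on single regions of the locus are the least stable values, and most were lost on leaving out 1 library. Adjusted p-values that DESeq2 gave as NA (6 values) were left out.

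Median-ratio scaling and edgeR raised H3K27ac 2.87 kb upstream past the threshold at 1 h (2.00 and 2.15) and 6 h (2.29 and 2.33) of the time course and in LyzM-Cre Egr2 fl/fl against Egr2 fl/fl at 24 h (0.68 and 0.69). DESeq2 gave 2.18, 2.35 and 0.69 there, and 1.55 at 2.87 kb in C57, 1.97 at the C57 start and 2.00 at 2.87 kb in NOD, all past the threshold. The genotype difference of H3K27ac at 24 h changed sign under median-ratio scaling, edgeR and DESeq2 at 22.87 kb (0.45, 0.45 and 0.46) and 4.18 kb upstream (0.33, 0.33 and 0.34), and that of PU1 at 2.88 kb did likewise (0.15, 0.19 and 0.14), as did the PU1 interaction at 4.18 kb (0.0662, 0.12 and 0.0633). For the genotypes all of these settings rescaled on the EGR2 sites alone, and share the assumption that those sites do not change as a set. H3K4me2 at 2.87 kb changed sign under the same settings in BALB (0.52, 0.73 and 0.68), NOD (0.28, 0.29 and 0.29) and SPRET (0.38, 0.37 and 0.37), and at the C57 start it came to 0.00815 with edgeR and 0.00894 with DESeq2.

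The counts of regions called moved most. With median-ratio scaling, Pol II calls were 0 in BALB and 2 in SPRET, and in the time course 8 (1 h) and 2 (24 h) for H3K27ac and 5 (1 h) and 2 (24 h) for Pol II. With edgeR, Pol II calls were 3 in SPRET, and time-course calls were 8 and 2 for H3K27ac and 6 and 3 for Pol II at 1 and 24 h. With DESeq2, H3K27ac calls were 4 in C57, 4 in NOD and 1 in PWK, Pol II calls were 1 in C57 and 3 in SPRET, and time-course calls were 10 and 4 for H3K27ac and 7 and 4 for Pol II at 1 and 24 h. A pseudocount of 5 left 0 H3K27ac and 0 Pol II calls at 24 h of the time course, where Pol II 13.17 kb downstream was 2.63. The filter on low values left 1 Pol II call at 1 h and 0 at 24 h, where that region was 2.996. With lists of equal length the C57 peaks gained at 24 h were 1 for EGR2, 3 for PPARg and 0 for CEBPb.

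With the replicate number as a block, H3K27ac passed at 2.87 kb in C57 (1.21) and NOD (1.76), at the C57 start (1.60) and at 2.87 kb at 6 h (2.08). H3K27ac calls then came to 7 in C57, 5 in NOD, 4 in PWK and 2 in SPRET, Pol II calls to 0 in BALB, 2 in NOD and 3 in SPRET, and time-course calls to 8, 11 and 8 for H3K27ac at 1, 6 and 24 h and 3 for Pol II at 24 h, with 1 each for H3K4me2 in NOD, H3K4me3 in C57 and EGR2 at 6 h, which had none without it. Apart from Pol II of C57, PWK and SPRET, these groups share a number over 2 pairs only, too few to settle whether libraries were paired.

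Leaving out 1 library at a time gave the following ranges. At 2.87 kb upstream H3K27ac ran from 1.72 to 3.19 in BALB, from -0.30 to 1.42 in PWK, and from 0.0736 to 2.32 at 1 h and 1.63 to 2.54 at 6 h of the time course. H3K4me2 there ran from -1.08 to 0.93 in BALB, -0.27 to 0.25 in NOD, -0.39 to 0.46 in PWK and -0.30 to 0.11 in SPRET, and H3K4me3 from -0.38 to 0.81 in PWK, while H3K4me3 at the C57 start ran from -0.10 to 0.57. EGR2 at 2.88 kb ran from -1.80 to 1.82 at 1 h and from -0.53 to 2.70 at 6 h. Pol II 13.17 kb downstream ran from 6.11 to 6.55 at 1 h, 4.88 to 7.07 at 6 h and 1.97 to 3.61 at 24 h, and 23.7 kb downstream from -0.0732 to 0.45 at 24 h. Between genotypes H3K27ac ran from -0.30 to 0.12 at 22.87 kb and its interaction at 4.18 kb from -0.20 to 0.28, PU1 at 2.88 kb from -0.25 to 0.0344 and its interaction at 4.18 kb from -0.30 to 0.15. The H3K27ac calls ran from 1 to 4 in BALB, 0 to 2 in NOD, 0 to 3 in PWK and were 0 throughout in SPRET, and the Pol II calls from 0 to 1 in C57, 0 to 1 in BALB, 0 to 4 in PWK and 0 to 1 in SPRET. In the time course H3K27ac calls ran from 1 to 8 at 1 h, 0 to 9 at 6 h and 0 to 4 at 24 h, and Pol II calls from 0 to 6, 0 to 8 and 0 to 5.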
